A study of Nannospalax ehrenbergi and Mus musculus with 14 samples.

Results

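The miR-34 and miR-449 microRNAs were followed in the tumor side and the untreated side of Spalax and mice that had received a chemical carcinogen. Every row of the deposited microRNA tables named miR-34a, miR-34b, miR-34c, miR-449a, miR-449b or miR-449c, with either arm, was taken as a member, which gave 10 of the 1326 microRNA names. The main members are miR-34a-5p, miR-34b-5p, miR-34c-5p and miR-449a-5p. The other 6 rows are miR-34a-3p, miR-34b-3p, miR-34c-3p, miR-449a-3p, miR-449b and miR-449c-5p. A read was assigned to 7 of the 10 names in at least 1 Spalax library and to all 10 in at least 1 mouse library.

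Small RNA from muscle tissue was sequenced in 14 libraries of 4 Spalax (Nannospalax ehrenbergi, the blind mole rat, a long-lived wild rodent) and 3 mice. All animals received a single injection of 3-methylcholanthrene (3MCA), a polycyclic hydrocarbon that damages DNA, on 1 side of the body, at 1 mg in 500 µl for Spalax and 200 µg in 200 µl for mice. The injected side (IS), where the tumor grew, and the uninjected side (UIS) of the same animal were compared, so no library came from an animal without 3MCA. The Spalax spalax_600 and spalax_976, both female, carried granulomas, benign inflammatory growths, with tissue taken at 14 and 16 months from the injection. The Spalax spalax_2240, a female, and spalax_2230, a male, carried fibrosarcomas, malignant tumors of connective tissue, with tissue taken at 18 and 30 months. The male C57BL/6 mouse_1019, mouse_1023 and mouse_512 carried fibrosarcomas, with tissue taken at 14, 12 and 11 weeks. Spalax were wild-caught, outbred animals of an estimated 2 to over 10 years and the mice were 3 to 4 months old. Species, age, dose and waiting time therefore cannot be told apart, and sex was not balanced between the species. Within Spalax, the granulomas were taken earlier than the fibrosarcomas, and the only male carried a fibrosarcoma. Diagnosis and waiting time cannot be told apart there. Each Spalax group held 2 libraries and each mouse group 3. A UIS library is listed for mouse_1019, but no values carry that name, and the mouse UIS values named M1018H match no listed animal. Whether M1018H came from mouse_1019 is not known, so it was used as a UIS replicate and was not paired.

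Members of both families share a seed, the short stretch near the 5′ end that a microRNA pairs with its target messages, and so share many targets. The transcription factor p53, which responds to DNA damage, activates the genes of miR-34a and of the miR-34b/miR-34c cluster, and the resulting microRNAs restrain cyclins, cyclin-dependent kinases, Met and Bcl2. The miR-449 cluster is induced by E2F1 and during the formation of multiciliated epithelial cells, where miR-34b and miR-34c are also abundant.

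The shared seed is visible in the mouse hairpin genes (GENCODE M21, GRCm38). The stretches below are shown because the tables separate the members by these letters. Each holds 22 bases of the gene, 5′ to 3′, in DNA letters, and begins 1 base before the heptamer GGCAGTG, printed in capitals. The ends of the mature microRNAs were not available here, so the stretches are not the mature sequences.
miR-34a gene, chr4:150068473-150068494, plus strand: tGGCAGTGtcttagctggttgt
miR-34b gene, chr9:51103611-51103632, minus strand: aGGCAGTGtaattagctgattg
miR-34c gene, chr9:51103077-51103098, minus strand: aGGCAGTGtagttagctgattg
miR-449a gene, chr13:113037549-113037570, plus strand: tGGCAGTGtattgttagctggt
miR-449b gene, chr13:113037429-113037450, plus strand: aGGCAGTGttgttagctggctg
miR-449c gene, chr13:113036008-113036029, plus strand: aGGCAGTGcattgctagctggc

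The heptamer occurred once in each of the 6 hairpins. On the transcribed strand it was found in 35 of the 2201 microRNA hairpins annotated (1.59%), and on either strand in 82 (3.73%). The miR-34b and miR-34c stretches were equal at 21 of 22 positions, so the reads of these 2 names could be split by the counting and each value is uncertain to that extent. The miR-34a and miR-449a stretches were equal at 15 of 22 positions and the miR-449a and miR-449c stretches at 18 of 22.

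The miR-34a hairpin lies at chr4:150068454-150068555 on the plus strand, within an exon of Gm37795, an unclassified transcript of the same strand. The miR-34b and miR-34c hairpins lie at chr9:51103562-51103645 and chr9:51103034-51103110 on the minus strand, 451 bases apart, within an intron of Btg4, which is transcribed from the other strand. The 3 miR-449 hairpins lie within 1 intron of Cdc20b on its own strand, at chr13:113037534-113037624 (miR-449a), chr13:113037419-113037498 (miR-449b) and chr13:113035983-113036091 (miR-449c). Gaps of 35 and 1327 bases separate them. Both tables use mouse microRNA names, also for Spalax, and whether Spalax sequences differ from mouse at these positions was not tested.

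The libraries held 2034574 to 13982842 reads on microRNAs, with 2034574 to 9574014 at the IS and 11446933 to 13982842 at the UIS. The floor of 3 reads lay between 2.15e-05% and 0.000147% of a library and covers counting error only. Normalized values, which are reads divided by a size factor per library, are used below unless reads are named. The 6 skeletal muscle microRNAs of a marker list (miR-1a, miR-206, miR-133a, miR-133b, miR-499 and miR-208b) made up 27.6% to 37.3% of the reads at the UIS and 0.00953% to 3.92% at the IS, so the IS libraries held little muscle microRNA. In such bulk samples, fewer cells of a type and less RNA per cell cannot be told apart.

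In mouse fibrosarcoma, miR-34b and miR-34c, with both arms, rose at the IS, while miR-34a-5p did not pass the test. miR-449a-5p and miR-449c-5p were also higher past the threshold, but reached the low-value filter only in the tumors, so their tests were not independent of being high there. miR-34c-5p was the most abundant member in the tumors. It stood at 3470 in mouse_1019, 9773 in mouse_1023 and 5503 in mouse_512, against 402, 239 and 219 at the UIS (M1018H, mouse_1023 and mouse_512). The lowest tumor was far above the highest untreated side. The rise was 4.37 ± 0.48 (log2, SE), or 20.6-fold, with an adjusted p of 0.001 (limma). By abundance, miR-34c-5p moved from rank 185 to 225 among all microRNAs at the UIS to rank 51 to 84 at the IS.

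miR-34b-5p, from the same cluster, followed at a lower level. It was at 87.8, 345 and 222 in the tumors of mouse_1019, mouse_1023 and mouse_512 and at 16.3, 19.2 and 15.4 at the UIS (M1018H, mouse_1023 and mouse_512). The groups did not overlap, and mouse_1023 was highest for both members of the cluster. The rise was 3.41 ± 0.57 (log2, SE; limma adjusted p = 0.00362).

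miR-449a-5p was at 89.6, 58.5 and 52.2 in the tumors of mouse_1019, mouse_1023 and mouse_512 and at 8.14, 6.86 and 9.61 at the UIS (M1018H, mouse_1023 and mouse_512). Here mouse_1019 was highest, and the groups again did not overlap. The rise was 2.85 ± 0.42 (log2, SE; limma adjusted p = 0.00246). miR-449c-5p, its cluster neighbour, stood at 40.6, 23.1 and 24.4 against 4.07, 4.12 and 0, in the same order of animals, with a rise of 3.31 ± 0.72 (log2, SE; limma adjusted p = 0.00857). Since its UIS libraries held at most 3 reads each, the ratio of pooled reads is given with its counting interval, 10.9 (95%, exact, 4.90 to 30.1).

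The 3p arms of miR-34b and miR-34c moved with their 5p partners. miR-34b-3p rose by 2.91 ± 0.48 and miR-34c-3p by 2.71 ± 0.50 (log2, SE), with limma adjusted p-values of 0.00362 and 0.00527. The 5p arm made up 98.6% of the miR-34c reads in all 3 tumors and 95.1% to 96.7% at the UIS. For miR-34b, the 5p share was 42.5% to 66.7% at the IS and 37.5% to 53.8% at the UIS, so neither arm dominated.

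miR-34a-5p, a direct transcriptional target of p53, was at 291, 308 and 269 in the tumors of mouse_1019, mouse_1023 and mouse_512. At the UIS it was at 495, 570 and 307 in M1018H, mouse_1023 and mouse_512. The groups overlapped, because the UIS value of mouse_512 lay beside the tumor values. The difference was -0.61 ± 0.37 (log2, SE; limma adjusted p = 0.193). It changed sign when reads were scaled to library totals, to 1.76 with a limma adjusted p of 0.0165. Under that scaling the median of all tested microRNAs moved to 2.58, so relative to the median miR-34a-5p was at -0.82.

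Of the 7 members tested in mice, 6 were higher at the IS past the threshold, against 32.2% of the 547 microRNAs tested. Their median log2 change was 2.91, against 0.21 over all tested microRNAs. miR-449a-5p and miR-449c-5p passed the filter on low values only through the tumor libraries, so they had to differ and their part of the count is a description. The members not tested were miR-34a-3p, with 3 to 11 reads in every mouse library, miR-449a-3p, with 2 reads in the tumor of mouse_1019, and miR-449b, with 1 read in the tumor of mouse_512.

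**Figure D1:**
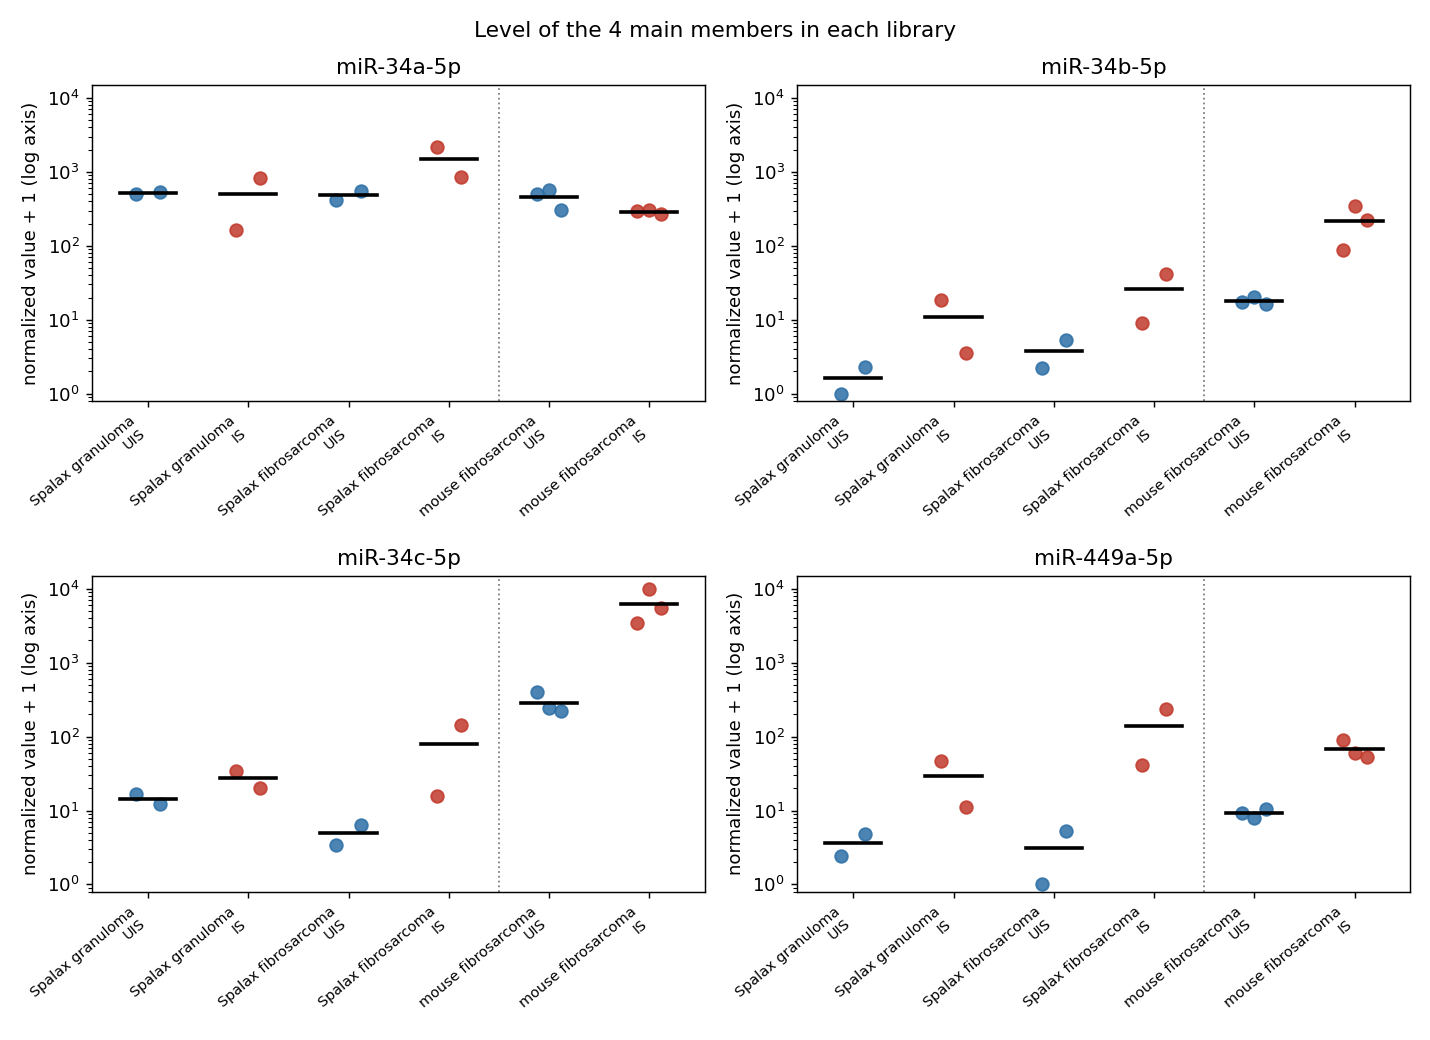
Normalized value plus 1 (log axis) of the 4 main members in each library, with IS in red, UIS in blue and the mean of each group as a bar. The dotted line separates the Spalax table from the mouse table, which were normalized separately. In mice miR-34c-5p stood at 3470 to 9773 in the tumors, above every UIS library, while miR-34a-5p lay between 269 and 570 in the 6 mouse libraries. In the 8 Spalax libraries miR-34a-5p ranged from 162 to 2150.

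In Spalax fibrosarcoma, miR-449a-5p, miR-34c-5p and miR-34a-3p were higher at the IS past the threshold. miR-449a-5p and miR-34a-3p reached the low-value filter only in IS libraries, so their tests were not independent of being high there. miR-449a-5p was at 234 in the tumor of spalax_2240 and 39.7 in that of spalax_2230, against 4.31 and 0 at their UIS. Both tumors were above both untreated sides, with a gap of several fold between the tumors. The fitted rise was 5.41 ± 1.20 (log2, SE; limma adjusted p = 0.0113), the second largest rise among the 447 microRNAs tested. The untreated sides held 4 reads in all, so the ratio of pooled reads was 34.7, with an exact 95% counting interval of 13.3 to 129. Without the UIS library of spalax_2230 the adjusted p was 0.0832, and without the tumor of spalax_2240 it was 0.0556, with fitted rises of 4.21 and 4.14.

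miR-34c-5p was at 143 in the tumor of spalax_2240 but only 14.7 in that of spalax_2230, against 5.38 and 2.41 at their UIS. The groups did not overlap, yet by fold the 2 tumors differed more from each other than the lower tumor did from the untreated sides. The rise was 3.35 ± 1.02 (log2, SE; limma adjusted p = 0.0355). The call was lost in a fit of only these 4 libraries (adjusted p = 0.0753), without the low-value filter (0.0630) and without any of 5 single libraries (0.0633 to 0.171), among them the tumor of spalax_2240.

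miR-34b-5p was at 41.2 and 8.17 in the tumors of spalax_2240 and spalax_2230 and at 4.31 and 1.20 at their UIS. Its change of 2.52 ± 1.12 (log2, SE) did not pass the test (limma adjusted p = 0.116). As for its neighbour miR-34c-5p, the tumor of spalax_2240 was the higher of the pair.

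miR-34a-5p showed the other order of animals. It was at 842 in the tumor of spalax_2240 and 2150 in that of spalax_2230, against 549 and 413 at their UIS. Both tumors lay above both untreated sides, and the highest level of this member among the Spalax libraries was that of spalax_2230. The change of 1.50 ± 0.80 (log2, SE) did not pass the test (limma adjusted p = 0.182), although it did after scaling to library totals (3.18, adjusted p = 0.0131; 1.78 relative to the median of 1.40 under that scaling). Its passenger arm miR-34a-3p was at 19.5 and 39.7 in the tumors of spalax_2240 and spalax_2230 and 4.31 and 3.61 at their UIS, again highest in spalax_2230. It rose by 2.55 ± 0.66 (log2, SE; limma adjusted p = 0.0195). That call was lost without the tumor of spalax_2230 or either UIS library, where the adjusted p was 0.0812 to 0.0918.

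Of the 5 members tested in Spalax, 3 were higher past the threshold in fibrosarcoma, against 15.2% of the 447 microRNAs tested in that direction. Without the UIS library of spalax_2230, 0 of the 5 were called. Without the tumor or the UIS library of spalax_2240, 1 was called. miR-34a-3p, miR-34b-5p and miR-449a-5p passed the filter only through IS libraries, so the count is a description. The median log2 change of the members was 2.55, against -0.23 over all tested microRNAs.

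In granuloma, no member of the 5 tested passed the threshold, where 48.3% of the 447 microRNAs did. No member had an unadjusted limma p under 0.05 either, edgeR called 0 members and DESeq2 called 1. miR-449a-5p was at 46.2 in the granuloma of spalax_600 and 10.1 in that of spalax_976, against 1.42 and 3.81 at their UIS. The groups did not overlap, and the fitted difference was 2.75 ± 1.20 (log2, SE; limma adjusted p = 0.0951). miR-449a-5p and miR-34b-5p passed the low-value filter only through IS libraries. Their separation and tests were therefore not independent of being high there. When the animal entered as a replicate block, the adjusted p was 0.0433, which is past the threshold. The pooled reads were 45 against 4, a ratio of 10.6 with an exact 95% counting interval of 3.85 to 40.4.

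miR-34b-5p was at 17.5 in the granuloma of spalax_600 and 2.53 in that of spalax_976, and at 0 and 1.27 at their UIS. The difference was 2.42 ± 1.12 (log2, SE; limma adjusted p = 0.111). Without the granuloma of spalax_976, which leaves only that of spalax_600, the difference was 3.62. The single read at the UIS gives a ratio of pooled reads of 15.0 with a very wide exact 95% counting interval, 2.33 to 630.

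miR-34c-5p was at 33.7 and 19.0 in the granulomas of spalax_600 and spalax_976 and at 15.6 and 11.4 at their UIS. The difference of 0.88 ± 1.02 (log2, SE) was smaller than its error (limma adjusted p = 0.505), although the groups did not overlap. miR-34a-5p was at 162 in the granuloma of spalax_600 and 831 in that of spalax_976, with 499 and 541 at their UIS. The granulomas lay on either side of the untreated tissue, so the difference of -0.50 ± 0.80 (log2, SE; limma adjusted p = 0.633) has no common direction. It was 0.68 without the granuloma of spalax_600 and -1.67 without that of spalax_976. With library totals it was 1.34, where the median of all microRNAs moved to 1.90, so it stood at -0.56 relative to that median. miR-34a-3p was at 3.74 and 7.60 in the granulomas, against 5.67 and 8.89 at the UIS (-0.35 ± 0.66, log2, SE; limma adjusted p = 0.693).

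**Figure D2:**
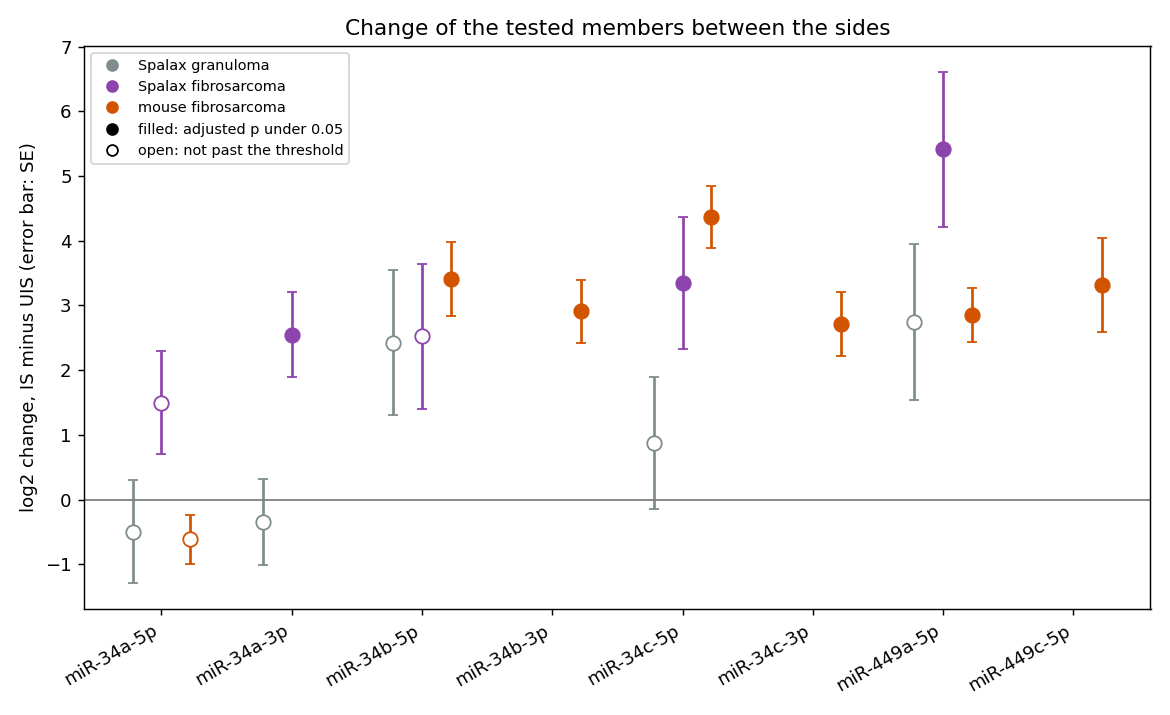
Log2 change of each tested member from the UIS to the IS in Spalax granuloma, Spalax fibrosarcoma and mouse fibrosarcoma, with the SE as error bar and filled points for an adjusted p under 0.05. In mice 6 members were past the threshold and in Spalax fibrosarcoma 3, with miR-449a-5p at 5.41, while in granuloma all 5 points are open.

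The remaining Spalax members were close to absent. miR-34b-3p had 0 to 10 reads and miR-34c-3p 0 to 6 reads in each library. All 9 reads of miR-34c-3p in fibrosarcoma and all 4 in granuloma lay at the IS. The lower limit of the exact 95% counting interval of the ratio was 1.51 in fibrosarcoma and 0.619 in granuloma. The granuloma interval thus included equal levels on both sides. Both intervals cover counting error only and leave out the spread between animals, and miR-34c-3p was not tested in Spalax. No read was assigned to miR-449a-3p, miR-449b or miR-449c-5p in any Spalax library, which allows each a share of up to 2.30e-05% to 0.000147% of a library. Whether the Spalax form of miR-449c would be counted under the mouse name was not tested.

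The Spalax conditions were then compared with each other. None of the 5 members passed the test for a different change in granuloma and fibrosarcoma (limma), where 3.8% of the 447 microRNAs did. An unadjusted p under 0.05 was reached by 1 member, miR-34a-3p, with a difference of -2.89 ± 0.93 (log2, SE; limma adjusted p = 0.104), and edgeR and DESeq2 called 0 members. miR-34a-3p passed the low-value filter only through the fibrosarcoma IS libraries, so its test was not independent of being high there. For the main members the differences, granuloma minus fibrosarcoma, were -1.99 ± 1.13 for miR-34a-5p, -0.10 ± 1.59 for miR-34b-5p, -2.48 ± 1.44 for miR-34c-5p and -2.66 ± 1.70 for miR-449a-5p (log2, SE). With errors of this size, differences of several fold in either direction are not resolved.

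Between the IS of granuloma and of fibrosarcoma, 0 of the 5 members passed the test (limma), against 18.8% of the 447 microRNAs. The unadjusted p was under 0.05 for 2 members, miR-34a-5p at -1.87 ± 0.80 and miR-34a-3p at -2.18 ± 0.66 (log2, SE), with limma adjusted p-values of 0.180 and 0.0574, and edgeR and DESeq2 called neither. Both were lower in granuloma. For miR-34a-3p this was not independent of the low-value filter, which it passed only through the fibrosarcoma IS libraries. Without the granuloma of spalax_976 the miR-34a-5p difference was -3.04, with an adjusted p of 0.0158. Between the UIS of the 2 conditions, 0 of the 5 members and 0% of all microRNAs passed (limma), and edgeR and DESeq2 also called 0. No member had an unadjusted p under 0.05. The largest UIS difference was that of miR-34c-5p, 1.62 ± 1.02 (log2, SE), from 2 to 11 reads per library.

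The 5 members tested in Spalax showed 2 orders of the animals at the IS, across the diagnoses. miR-34b-5p, miR-34c-5p and miR-449a-5p were each higher in the IS of spalax_600 than of spalax_976, and higher in spalax_2240 than in spalax_2230. miR-34a-5p and miR-34a-3p had the opposite order in both pairs. These orders rest on 2 animals per diagnosis, and how many of all tested microRNAs showed each was not counted. The members are not independent, since miR-34a-5p and miR-34a-3p come from 1 hairpin and miR-34b-5p and miR-34c-5p could exchange reads. Some values rest on few reads, such as 2 for miR-34b-5p in spalax_976 and 3 for miR-34a-3p in spalax_600. miR-34b-3p, with 1 to 10 reads at the IS and not tested, had neither order. Over the 8 Spalax libraries, log2 levels of miR-449a-5p correlated with miR-34b-5p at r = 0.921 and with miR-34c-5p at r = 0.881, and with miR-34a-5p at r = 0.234. Those of miR-34a-5p and miR-34a-3p correlated at r = 0.852. In the 6 mouse libraries, miR-34b-5p and miR-34c-5p correlated at r = 0.980, and miR-34a-5p with miR-34c-5p at r = -0.680. These values are descriptions, since the libraries share sides and animals.

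The make-up of the families' reads restates these orders as shares. It rests on the same reads and is not a second observation. At the UIS of Spalax, miR-34a-5p held 96.7% to 99.1% of the reads on 5p arms. At the IS it held 62.5% in spalax_600 and 66.8% in spalax_2240, but 96.3% in spalax_976 and 97.2% in spalax_2230. In spalax_600 and spalax_2240, miR-449a-5p held 17.8% and 18.6% and miR-34c-5p 13.0% and 11.4%. In mice, miR-34a-5p and miR-34c-5p shared the untreated tissue, with 59.1% ± 7.75 and 37.2% ± 7.77 (SD, n = 3). In the mouse tumors miR-34c-5p held 90.3% ± 2.92 and miR-34a-5p 4.89% ± 2.23 (SD, n = 3). These shares do not depend on the size factors. miR-34b-5p and miR-34c-5p could exchange reads, so the sum of both is the safer quantity.

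**Figure D3:**
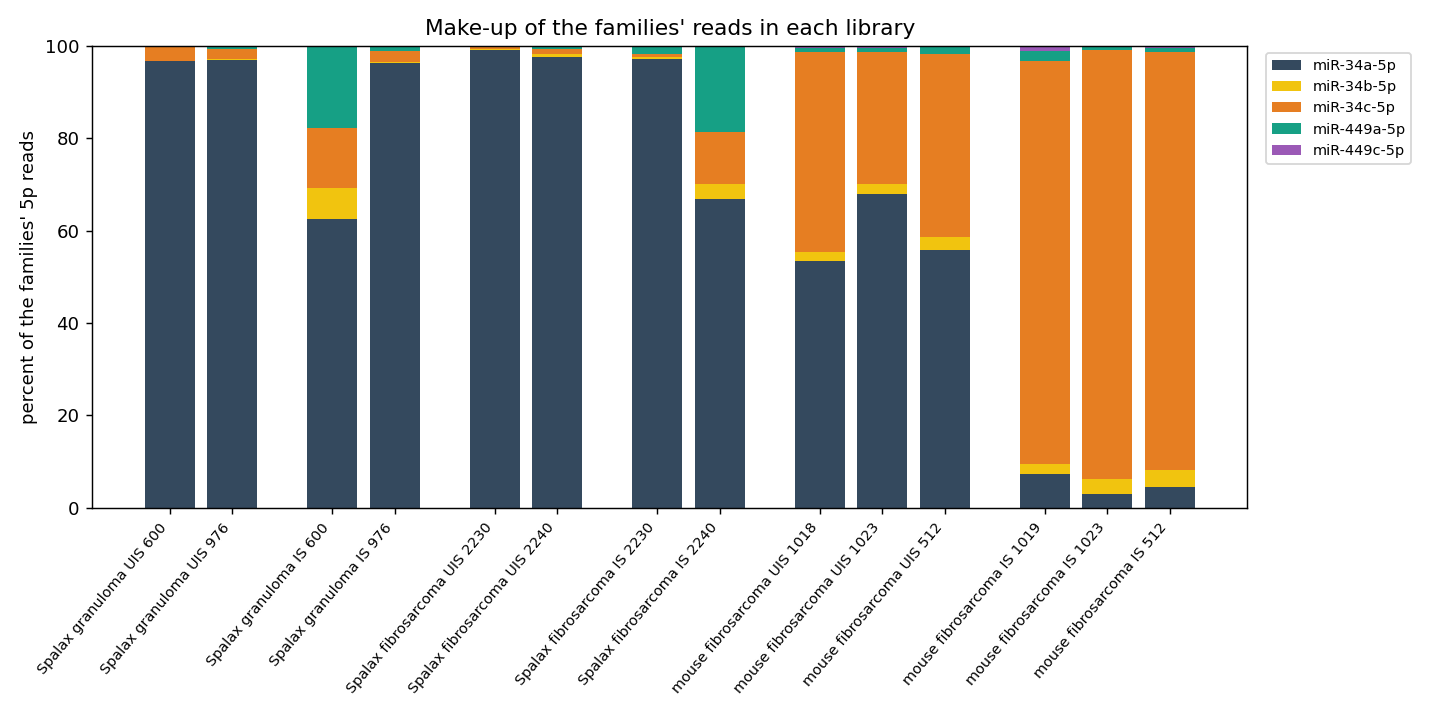
Percent of the families' 5p reads held by each member in every library, as stacked bars, with the group and animal number under each bar. miR-34a-5p held 96.7% to 99.1% at the Spalax UIS and 62.5% to 97.2% at the Spalax IS, whereas miR-34c-5p held 87.2% to 93.0% in the mouse tumors.

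The families' 5p reads took a larger share of all microRNA reads at the IS in 6 of 6 pairs, on a scale where the typical microRNA was higher there too. Scaled to library totals, the median log2 change of all tested microRNAs was 1.90 in granuloma, 1.40 in Spalax fibrosarcoma and 2.58 in mice. The share at the IS was 0.00582% in spalax_600, 0.0193% in spalax_976, 0.0286% in spalax_2240, 0.0508% in spalax_2230, 0.257% in mouse_1023 and 0.158% in mouse_512. At the UIS it was 0.00315%, 0.00355%, 0.00401%, 0.00294%, 0.00454% and 0.00205% in the same animals. The paired UIS values thus ranged from 0.00205% to 0.00454% over both species. The IS values were lowest in the granulomas, higher in the Spalax fibrosarcomas and highest in the mouse fibrosarcomas, an order that was not tested. The ratio of IS to UIS was 1.85 in spalax_600, below that of the median microRNA in granuloma, and 77.0 in mouse_512. With the muscle microRNAs left out of the denominator the ratios of the 6 pairs ranged from 1.16 to 58.0. The unpaired mouse libraries were at 0.115% (IS, mouse_1019) and 0.00596% (UIS, M1018H), so M1018H lay above the IS of spalax_600.

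**Figure D4:**
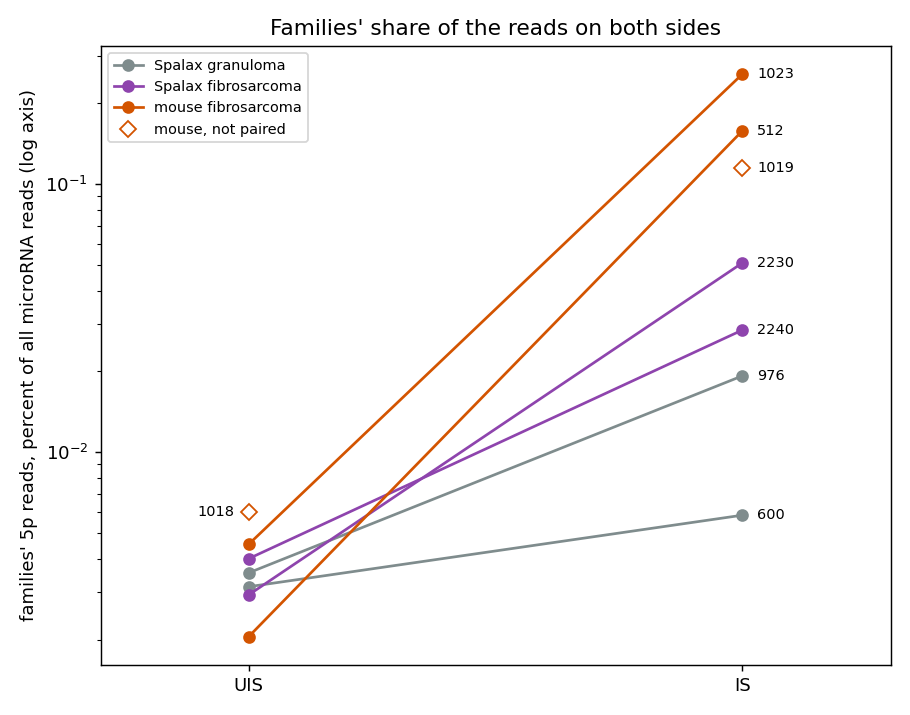
Share of all microRNA reads held by the families' 5p arms (percent, log axis) at the UIS and IS, with a line for each of the 6 paired animals and open diamonds for the unpaired mouse libraries. All lines go up, from 0.00205% to 0.00454% at the UIS to 0.00582% to 0.257% at the IS. The unpaired UIS library M1018H, at 0.00596%, lay above the lowest IS value.

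In the Spalax table, 5 mouse libraries appear on its own scale, so both species can be set side by side there. On that scale miR-34c-5p was at 2918 to 8127 in the 3 mouse tumors and 14.7 to 143 in the 2 Spalax fibrosarcomas, and at 178 to 180 and 2.41 to 5.38 at the UIS. miR-34a-5p had the opposite order in the tumors, 239 to 256 in mice and 842 to 2150 in Spalax. These levels were not tested, because mouse names were used for both species. The change within each species was tested in that table, a comparison chosen after the data were seen. None of the 4 main members changed differently in mouse and Spalax fibrosarcoma past the threshold (limma), where 17.9% of the 403 microRNAs tested in both species did. No main member had an unadjusted p under 0.05, and edgeR and DESeq2 called 0. The differences, mouse minus Spalax, were -1.90 ± 0.96 for miR-34a-5p, 0.97 ± 1.41 for miR-34b-5p, 1.41 ± 1.23 for miR-34c-5p and -2.47 ± 1.42 for miR-449a-5p (log2, SE).

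Markers of other cell types are given as shares of all reads, a scale on which the median microRNA was higher at the IS. The counts of markers that rose or fell come from the tests on normalized values, so the 2 can differ in direction. The 7 epithelial microRNAs (the miR-200 family, miR-203 and miR-205), which mark the tissue where miR-449 is best known, summed to 0.000493% to 0.000946% of the reads at the Spalax UIS and 0.00241% to 0.0136% at the IS. In mice they summed to 0.00303% to 0.0180% at the UIS and 0.00805% to 0.0243% at the IS. None of the 7 was at 0 in all libraries of a group. In each Spalax condition 1 of the 5 tested rose, and in mice 0 of 4 rose and 1 fell. At the IS the epithelial sum was 0.00241% in spalax_600 and 0.0136% in spalax_976, and 0.00496% in spalax_2240 and 0.00725% in spalax_2230. The 4 leukocyte microRNAs (miR-223, both arms of miR-142a, and miR-150) summed to 0.0597% to 0.102% at the UIS and 0.323% to 2.30% at the IS, with 3 of 4 rising in each Spalax condition and 2 of 4 in mice, and 1 falling in granuloma. The 6 microRNAs of fibroblasts and vessel wall went from 2.34% to 4.90% at the UIS to 4.41% to 13.4% at the IS. Of these, 3 rose and 3 fell in granuloma and in mice, and 0 rose and 3 fell in Spalax fibrosarcoma. The 3 red cell microRNAs summed to 0.0539% to 0.544% at the UIS and 0.0926% to 0.849% at the IS, and none passed the test in any of these comparisons (limma). All 6 muscle microRNAs fell in both Spalax conditions and 2 of 6 fell in mice. The part of these cells in the members' changes was not tested.

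Other microRNAs tied to p53 are given as counts. Of the 12 on a list from general knowledge that were in the tables, 1 was higher and 5 lower in granuloma, 2 higher and 4 lower in Spalax fibrosarcoma, and 0 higher and 7 lower of the 11 tested in mice. Over all tested microRNAs, 25.5% were higher and 22.8% lower in granuloma, 15.2% and 22.1% in Spalax fibrosarcoma, and 32.2% and 25.6% in mice. Their median log2 changes were -0.29, 0.04 and -1.82, against 0.13, -0.23 and 0.21 over all tested microRNAs. None differed in its change between granuloma and fibrosarcoma past the threshold (limma).

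In at least 2 of the 3 comparisons of the sides, 6 of them passed, on normalized values. Scaled to library totals, the median change of all tested microRNAs moved up to 1.90 in granuloma, 1.40 in Spalax fibrosarcoma and 2.58 in mice. The changes below hold for normalized values, and on that scale falls can be smaller or reversed. miR-143-3p and miR-145a-5p, which are processed with the help of p53 and are abundant in smooth muscle, fell in all 3. The miR-143-3p changes were -1.74 ± 0.40, -2.21 ± 0.40 and -2.55 ± 0.26 (log2, SE) in granuloma, Spalax fibrosarcoma and mouse fibrosarcoma. miR-22-3p, abundant in muscle, fell by 2.93 ± 0.25, 2.67 ± 0.25 and 3.00 ± 0.26 in the same order. miR-149-5p fell in all 3, by 2.01 to 3.27, and miR-107-3p fell in granuloma (-2.23 ± 0.48) and in mice (-1.11 ± 0.36). miR-141-3p, an epithelial microRNA of the miR-200 family, rose in granuloma (1.64 ± 0.54) and in Spalax fibrosarcoma (2.16 ± 0.54). miR-143-3p and miR-145a-5p are also in the list of fibroblasts and vessel wall, and miR-141-3p and miR-200c-3p in that of epithelium.

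The microRNAs outside the families whose log2 level followed each main member most closely differed between the species. In Spalax, over 8 libraries, these were miR-192-5p for miR-34a-5p (r = 0.807), miR-219a-5p for miR-34b-5p (r = 0.920) and miR-19b-3p for miR-34c-5p (r = 0.910) and for miR-449a-5p (r = 0.975). The next closest were miR-191-3p and miR-103-3p for miR-34a-5p, miR-9-5p and miR-130a-5p for miR-34b-5p, miR-92a-1-5p and miR-6236 for miR-34c-5p, and miR-130a-5p and miR-18a-5p for miR-449a-5p. miR-19b-3p, miR-18a-5p and miR-92a-1-5p all belong to the cluster of miR-17, and a tie between that cluster and the members was not tested. In mice, over 6 libraries, the closest were miR-27a-3p for miR-34a-5p (r = 0.985), miR-214-5p for miR-34b-5p (r = 0.982), miR-410-3p for miR-34c-5p (r = 0.999) and miR-7a-5p for miR-449a-5p (r = 0.978). The next closest were miR-3076-3p and miR-203-3p for miR-34a-5p, miR-99b-3p and miR-301a-3p for miR-34b-5p, miR-673-3p and miR-9-3p for miR-34c-5p, and miR-7688-5p and miR-16-1-3p for miR-449a-5p. They were picked as the highest of 442 and 540 microRNAs, and the libraries share sides and animals.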

How the data were processed

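Small RNA libraries (TruSeq kit) were trimmed, mapped with mirDeep and analysed with DESeq2 by the authors, and the labels' processing notes also name TopHat 1.4.1, HTSeq, DESeq and GRCm38. The microRNA reference and settings are not given in the sources used here. The deposited values are a signal, namely reads divided by a size factor: 100% of values came out as whole reads (tolerance 0.01), and the factors equal median-of-ratios factors. Those of the Spalax table rest on both species. Reads of the 5 mouse libraries held by both tables differed by 0.

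The main test was limma 3.58.1 (R 4.3.3; trended spread) on log2(value + 1), which understates changes of low values, for microRNAs with values of at least 10 in 2 Spalax or 3 mouse libraries. Adjusted p-values (Benjamini-Hochberg, threshold 0.05) cover all tested microRNAs. The 8 Spalax libraries shared a fit and mice were fitted apart. All 447, 547 and 403 microRNAs entered the fits named in the text. Counting intervals for ratios are exact and cover counting error only. Tests were tried on simulated reads.

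The 2 sides with a shared number are 1 animal. Their deviations from the group means correlated at 0.0933 (granuloma), 0.00405 (Spalax fibrosarcoma), and -0.107 and 0.122 (mice). Libraries within a group differed far beyond sampling noise (lowest chi-square over its degrees of freedom, 327). Alternatives were edgeR 4.0.16 with TMM or DESeq2 factors, DESeq2 1.42.0, library totals, factors per species, a pseudocount of 0.1, no filter, no trend, the animal as a block, a fit of the compared libraries alone, and dropping each library in turn. Every member is named, other p53-linked microRNAs where past the threshold in 2 or more of the 3 comparisons of the sides, and the 3 closest in level to each main member. Members and lists were chosen with earlier results of these data known. Python 3.11.15 was used for summaries. GENCODE M21 gave positions and hairpins.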

Additional observations from a re-analysis of the deposited data

Results flagged for a closer look

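miR-34a-5p passed the test in neither species' fibrosarcoma, but its normalized value was higher at the IS in 2 of 2 Spalax pairs (1.50, log2; limma adjusted p = 0.182) and lower in 2 of 2 mouse pairs (-0.61; 0.193). The test of the difference, chosen after the data were seen, gave -1.90 ± 0.96 (log2, SE; limma adjusted p = 0.224). With library totals the changes were 3.18 in Spalax and 1.76 in mice, so the mouse direction depended on the scaling. Relative to the median microRNA under that scaling, miR-34a-5p stood at 1.78 in Spalax and -0.82 in mice.

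The normalized value of miR-34a-3p, the passenger arm, was lower at the IS in both granuloma pairs (-0.35, log2). It was higher there in both Spalax fibrosarcoma pairs (2.55). The difference of -2.89 ± 0.93 (log2, SE) did not pass the test (limma adjusted p = 0.104), and the granuloma libraries held 3 to 7 reads each. Since miR-34a-3p passed the low-value filter only through the fibrosarcoma IS libraries, this difference was not independent of being high there. With library totals the granuloma change was 1.22, with 2 of 2 pairs higher at the IS, so its direction depended on the scaling. Relative to the median microRNA under that scaling, miR-34a-3p stood at -0.68 in granuloma and 2.61 in fibrosarcoma.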

How the results depend on the processing

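In mouse fibrosarcoma 6 members passed the threshold under every alternative run except library totals, where 7 did, and leaving out any library gave 6. In the main run 32.2% of the 547 microRNAs tested were higher past the threshold. The member added with library totals, miR-34a-5p, lay at -0.82 relative to the median of all tested microRNAs there. miR-449a-5p and miR-449c-5p passed the low-value filter only through the tumors, so their part of these counts is a description. The count of members was 0 under every alternative run for the difference between the Spalax changes and for the UIS, and moved elsewhere. In granuloma the count went from 0 to 1 with DESeq2, 2 with library totals and 1 with the animal as a replicate block (miR-449a-5p), and ranged from 0 to 1 when a library was left out (1 without the granuloma of spalax_976). In Spalax fibrosarcoma it was 3, 5 with library totals, 2 without the filter and 2 in a fit of the compared libraries alone, with 0 to 3 over the left-out libraries. Between the Spalax tumor sides it was 0, 1 with library totals and 1 without the trend, with 0 to 1 over the left-out libraries (1 without the granuloma of spalax_976). Between species it was 0, 2 without the filter (miR-34a-3p and miR-449c-5p, then tested too), and 0 to 1 over the left-out libraries (miR-34c-5p at 3.01, adjusted p = 0.0455 by limma, without the tumor of spalax_2240). The replicate block changed no other count of members.

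Of 632 recomputed member changes, 586 kept direction and side of the threshold and 23 changed direction. With edgeR (TMM), edgeR (DESeq2 factors) and DESeq2 in that order, granuloma miR-34a-5p was at 0.0033, 0.021 and 0.021, and the miR-34b-5p difference between the Spalax changes at 0.92, 0.69 and 0.82 (1.25 with a pseudocount of 0.1). With library totals, granuloma miR-34a-5p was at 1.34, granuloma miR-34a-3p at 1.22, mouse miR-34a-5p at 1.76 and miR-34a-5p between the UIS at -0.059 (-0.023 with TMM). Over the left-out libraries, granuloma miR-34a-5p ranged from -1.67 to 0.68 and miR-34a-3p from -0.78 to 0.083. The miR-34b-5p difference ranged from -1.29 to 1.09 and miR-34c-5p between the tumor sides from -2.45 to 0.75. Between the UIS, miR-34a-5p ranged from -0.080 to 0.33 and miR-449a-5p from -0.64 to 1.77. Between species, miR-34b-5p ranged from -0.14 to 2.07 and miR-34c-5p from -0.19 to 3.01. The cause was not tested.

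Among all microRNAs, the 17 that changed differently in granuloma and fibrosarcoma were 58 with DESeq2, 5 with the replicate block and 0 with a pseudocount of 0.1 or without the filter. The 84 between the tumor sides were 4 in a fit of those libraries only. The 72 between species were 192 without the filter and 111 with DESeq2. With library totals the share of calls that were higher was 83.5% in granuloma (52.8% with the deposited factors), 82.5% in Spalax fibrosarcoma (40.7%) and 92.3% in mice (55.7%). Pairs could not enter the comparisons between tumor sides or between UIS. With 2 libraries per Spalax group and under 10 reads for several members at the UIS, 1 library can decide a call there.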
